A study of Mus musculus with 5 samples.

Results

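Milk is rich in calcium and phosphate, and the luminal cells of the mammary gland, the epithelial cells that line its ducts and alveoli, move both ions into it. The 10 genes described here are the phosphate carrier *Slc34a2*, the surface calcium pumps *Atp2b1* and *Atp2b2*, the Golgi calcium pumps *Atp2c1* and *Atp2c2*, the calcium entry genes *Orai1*, *Stim1* and *Stim2*, the calcium-sensing receptor *Casr* and the hormone gene *Pthlh*. They were chosen by name, as genes of calcium entry, pumping and sensing and of phosphate carriage, and all 10 were found among the 24319 usable genes of the table. Their levels come from bulk RNA-seq of 5 libraries of mouse luminal cells, Lum1 to Lum5. By their labels, Lum1, Lum2 and Lum3 are wild type (n = 3) and Lum4 and Lum5 are *Brca1* knockout (n = 2), all of mixed strain and from mammary tissue. The study's text describes its bulk luminal cells as BRCA1-deficient. Its models include *MMTV-Cre* mice with floxed *Brca1* (fl/fl), in which a mammary tumor virus promoter drives Cre in mammary epithelium. Other crosses of the study carry a floxed *Trp53* allele, a *ROSA* mT/mG reporter or both. The study's methods prepared mammary cells from female mice of 3 to 4 months that were virgin or in mid-pregnancy. Which of these stages each library came from, its exact alleles and any pooling are not given in the sources used here, so the libraries were compared by label and also taken as 1 group of 5.

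Calcium enters a secretory cell across its basal side, partly through ORAI channels that STIM proteins open when the stores of the endoplasmic reticulum run low. From the cytosol it is pumped into the Golgi, where casein micelles take it up, or straight out across the cell surface. In lactation the surface pump PMCA2, made from *Atp2b2*, sits on the apical side. It is known to carry much of the calcium that reaches milk. Sodium-coupled carriers move phosphate across cell membranes, and its route into milk was not examined here. *Casr* lets the gland sense the calcium in blood, and the *Pthlh* product, parathyroid hormone-related protein, releases calcium from the mother's bone.

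The sequences that place these genes on the genome begin with *Slc34a2*, the member for which the study designed a CRISPR guide. The guide matches exon 6 of 13 in the coding sequence, on the minus strand at chr5:53061425-53061447 of GRCm38 (mm10), and is printed with the PAM in capitals. The other sequences are stretches of RefSeq promoters (GRCm38.p6, plus strand), shown because each holds the one match among the members to a motif that was searched for on both strands, in capitals. In *Slc34a2*, at chr5:53049279-53049351, a TATA-like run (TATAAA or TATATA, searched as alternatives) begins 29 bases before the start at 53049353. In *Orai1*, at chr5:123014824-123014920, a match to TTCNNNGAA, the core of sites bound by STAT5, a factor that prolactin activates, begins 207 bases before the start at 123015074.
Slc34a2 guide: cataagcgccacgatcgtgtTGG
Slc34a2 promoter: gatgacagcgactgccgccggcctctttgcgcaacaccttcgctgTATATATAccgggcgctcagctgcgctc
Orai1 promoter: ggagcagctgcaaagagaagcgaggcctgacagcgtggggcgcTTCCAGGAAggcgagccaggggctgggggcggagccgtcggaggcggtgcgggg
Promoter windows of 250 bases before to 50 after a start were given for 9 of the 10 members, 13 windows in all. TTCNNNGAA was in 1 of these 13 windows and in 8.30% of all 32851 promoters, and the TATA-like run in 1 of 13 and in 17.1% of all. GGGCGG, the core of sites for Sp1, was in 9 of the 13 windows (*Atp2b1*, *Atp2b2*, *Atp2c1*, *Orai1*, *Pthlh*, *Stim1* and *Stim2*) against 35.7% of all promoters. None of these motifs contains another, and in the stretches printed no match to one overlaps a match to another. They are matches of letters and not shown sites. By content of G and C, 2 member windows lay below the median of all promoters (52.7%), that of *Casr* at 49.7% and one of *Atp2c1* at 51.7%, while the others ran up to 79.3%.

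The libraries differed in depth and in what else they held. Estimated depth, from the steps between low values, was between 6.19e+06 fragments (Lum1) and 3.04e+07 (Lum3), an approximate figure since the table holds no counts. *Brca1* was at 1.30, 1.32 and 0.234 FPKM in Lum1 to Lum3 and at 1.20 and 1.34 FPKM in Lum4 and Lum5, so its level did not separate the labels, although a deletion of some exons need not lower such a value. Luminal keratins and surface markers were high throughout, with a summed level of 6150 to 10107 FPKM for 5 genes. Summed markers of other cells, also 5 genes each, ran from 6.90 to 122 FPKM for basal cells, 2.92 to 105 for fibroblasts and 1.92 to 238 for immune cells, with the highest values of all 3 in Lum2 and *Cd3e* at 0 in some libraries. Endothelial markers (3 genes) reached at most 5.29 FPKM and adipocyte markers (3 genes) 0.871 FPKM. Lum3 stood apart: all 5 mature luminal markers (*Prlr*, *Pgr*, *Esr1*, *Foxa1* and *Ly6a*) were highest there, with a sum of 279 FPKM against 16.7 to 39.7 in the other libraries, and all 5 casein genes were lowest there. Over the 11481 genes that averaged 1 FPKM or more, Lum3 held the lowest value for 51.9% and the highest for 18.5%. The 5 luminal progenitor markers were split in Lum3. *Elf5* (102 FPKM) and the casein gene *Csn3* (1738 FPKM) were lowest there, *Aldh1a3* (17.4 FPKM) and *Cd14* (387 FPKM) highest, and *Kit* neither. In bulk samples, fewer cells of a type and less RNA per cell cannot be told apart.

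By their means the members covered a wide range of levels. *Orai1*, *Atp2c1*, *Atp2c2*, *Atp2b1* and *Slc34a2* averaged between 19.7 and 35.9 FPKM, *Stim2* averaged 6.87 and *Stim1* 5.19 FPKM, and *Atp2b2*, *Pthlh* and *Casr* were at 0.291 FPKM or lower in every library. Single libraries cross this order, since in Lum3 *Stim1* was at 14.5 FPKM and *Slc34a2* at 9.90 FPKM. FPKM corrects for transcript length and for the fragments mapped in a library, so levels can be set beside each other between genes. Genes were put in the order of the mean of log2(FPKM + 1), and neighbours were subtracted within each library. Most neighbours did not differ by more than the SD of this difference over the 5 libraries. The exceptions were *Slc34a2* above *Stim2* by 1.30 ± 0.46 (SD, log2, n = 5) and *Stim1* above *Atp2b2* by 2.14 ± 1.02, each in 5 of 5 libraries. *Pthlh* was also listed above *Casr* in 5 of 5 libraries, by 0.16 ± 0.073, at levels of a few fragments or fewer.

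**Figure D1:**
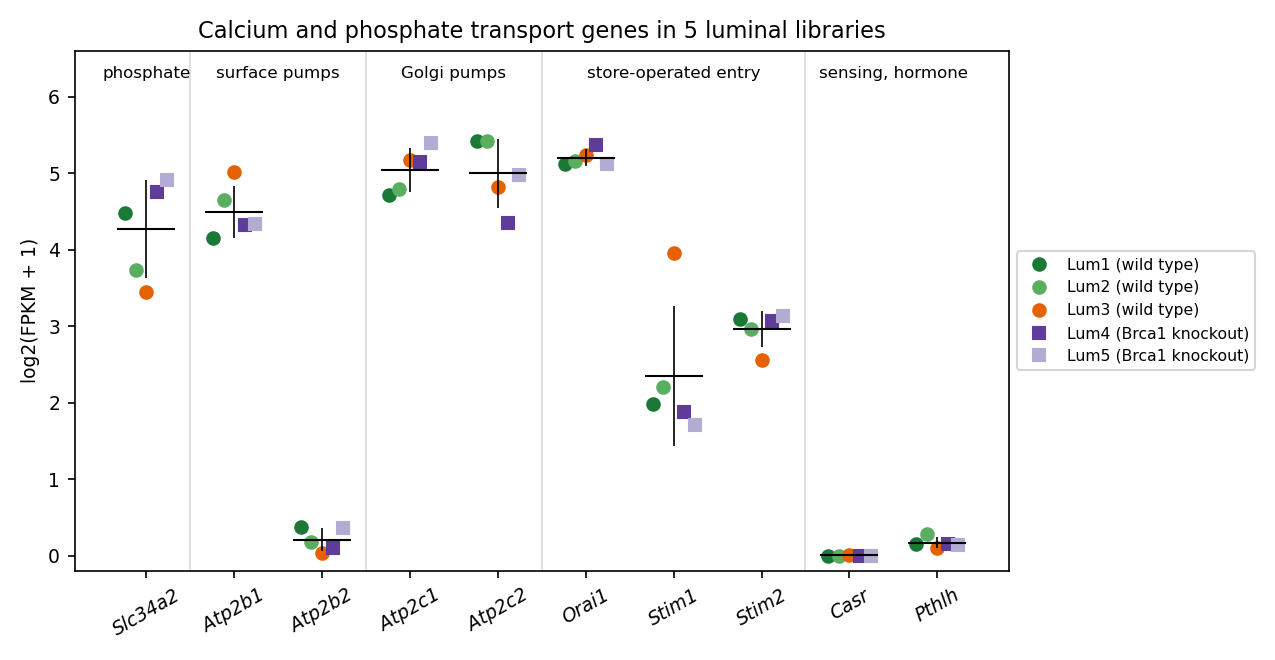
Level of each of the 10 genes in log2(FPKM + 1), with 1 point per library (circles, labelled wild type; squares, labelled *Brca1* knockout), a horizontal bar for the mean and a vertical bar for the SD over 5 libraries. *Orai1* points lie close together, the Lum3 point of *Stim1* at 3.95 lies far above the other libraries, and *Atp2b2*, *Casr* and *Pthlh* lie near 0.

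*Slc34a2* (chr5:53038081-53071664, plus strand) encodes NaPi-IIb, a sodium-phosphate carrier of the apical membrane. It was at 21.3, 12.3 and 9.90 FPKM in Lum1 to Lum3 and at 25.9 and 29.1 FPKM in Lum4 and Lum5. Both libraries labelled *Brca1* knockout were above all 3 labelled wild type, at means of 27.5 ± 2.24 (SD, n = 2) and 14.5 ± 5.999 FPKM (SD, n = 3). The difference on the log2(FPKM + 1) scale was 0.94 (standard error 0.34), or 1.92-fold, and it did not pass the test over all genes (limma, Benjamini-Hochberg adjusted p = 0.92; two-sided exact permutation p = 0.2, the smallest that 3 libraries against 2 allow).

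Set against the carriers it works beside, *Slc34a2* made up a small share of sodium-phosphate carrier transcripts. The family sum holds *Slc34a1*, *Slc34a2*, *Slc34a3*, *Slc20a1* and *Slc20a2*, and *Slc34a2* took 9.01%, 6.16% and 7.60% of it in Lum1 to Lum3 and 12.7% and 12.1% in Lum4 and Lum5 (mean 9.50% ± 2.81, SD, n = 5). *Slc20a1*, a widely expressed sodium-phosphate carrier, held most of the rest, at 207, 181 and 116 FPKM in Lum1 to Lum3 and at 172 and 203 FPKM in Lum4 and Lum5. The renal paralogs *Slc34a1* and *Slc34a3* were at 0.132 FPKM or lower.

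The surface pumps were nearly all *Atp2b1*. This gene (chr10:98914406-99026143, plus strand) encodes PMCA1, the pump that most cells use to clear calcium from the cytosol, and it was at 16.7, 24.02 and 31.4 FPKM in Lum1 to Lum3 and at 19.0 and 19.1 FPKM in Lum4 and Lum5. The labels overlapped, with Lum1 lowest and Lum3 highest. *Atp2b2* (chr6:113743831-114042613, minus strand), the gene of the apical milk calcium pump, was at 0.291, 0.130 and 0.0275 FPKM in Lum1 to Lum3 and at 0.0664 and 0.289 FPKM in Lum4 and Lum5. These values correspond to an estimated 3.74 (Lum4) to 54.6 (Lum5) fragments per library, if its longest annotated transcript of 8877 bases is taken. A shorter one of its 8 transcripts would give fewer fragments. It was thus listed above 0 in each library, but at a depth that gives little precision. Within the PMCA family (*Atp2b1* to *Atp2b4*), *Atp2b1* took 97.7% ± 0.83 (SD, n = 5) and *Atp2b2* 0.825% ± 0.715, at most 1.69% (Lum1). *Atp2b4* was at 0.162 to 0.644 FPKM and *Atp2b3* at 0.0233 FPKM or lower.

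Both Golgi pumps were well expressed, and their balance differed between libraries. *Atp2c1* (chr9:105403539-105527319, minus strand) encodes SPCA1, which loads the Golgi with calcium and manganese in most cells, and was at 25.1, 26.8 and 35.0 FPKM in Lum1 to Lum3 and at 34.3 and 41.2 FPKM in Lum4 and Lum5. Of its annotated exon bases, 18.9% also lie in exons of *Aste1* on the opposite strand, which was at 1.69 to 2.59 FPKM, and whether counting used strand is not given in the sources used here. *Atp2c2* (chr8:119700009-119757717, plus strand) encodes SPCA2, the form found mainly in secretory epithelia, and was at 42.0, 41.6 and 27.2 FPKM in Lum1 to Lum3 and at 19.4 and 30.3 FPKM in Lum4 and Lum5. *Atp2c2* was thus the larger part of the pair in Lum1 and Lum2, at 62.5% and 60.8%, and the smaller part in Lum3, Lum4 and Lum5, at 43.7%, 36.1% and 42.4%. The average over labels was 55.7% (n = 3) and 39.3% (n = 2). Both libraries labelled *Brca1* knockout were below all 3 labelled wild type, with Lum5 at 42.4% close to Lum3 at 43.7%. The labels also did not overlap for the *Slc34a2* share of its family, higher in both, and for the *Stim1* share, lower in both. They overlapped for the shares of *Atp2b1*, *Atp2b2* and *Orai1*. How often such shares do not overlap over other gene families was not computed. No test was run on these shares. By level, *Atp2c2* overlapped between the labels as deposited, because Lum3 lay below Lum5.

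*Orai1* had the highest mean of the members and, among the 7 tested, the smallest spread. This gene (chr5:123015074-123030456, plus strand), which encodes the pore of the store-operated calcium channel, was at 33.6, 34.8 and 36.8 FPKM in Lum1 to Lum3 and at 40.4 and 33.9 FPKM in Lum4 and Lum5, a highest to lowest ratio of 1.20. *Orai1* made up 86.1% ± 2.58 (SD, n = 5) of the 3 Orai channels, with *Orai3* at 3.94 to 6.51 FPKM. The sensors that open the channel were lower. *Stim2* (chr5:53998499-54121057, plus strand), the sensor that answers small falls of store calcium, was at 7.52, 6.82 and 4.87 FPKM in Lum1 to Lum3 and at 7.35 and 7.80 FPKM in Lum4 and Lum5, lowest in Lum3.

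*Stim1* (chr7:102267806-102437319, plus strand), the sensor of larger falls, was set apart by 1 library. Its level was 2.95, 3.63 and 14.5 FPKM in Lum1 to Lum3 and 2.66 and 2.26 FPKM in Lum4 and Lum5, so that Lum3 was 6.39 times the lowest library. *Stim1* took 74.8% of the sum of both sensors in Lum3 and 22.5% to 34.7% elsewhere (28.0% ± 5.09 without Lum3, SD, n = 4; 37.4% ± 21.4 with it). Lum3 is also the library with the highest mature luminal markers, the lowest caseins, *Brca1* at 0.234 FPKM, the greatest estimated depth, and fibroblast and immune marker sums of 82.7 and 50.5 FPKM. The part of these in the *Stim1* level was not tested.

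**Figure D2:**
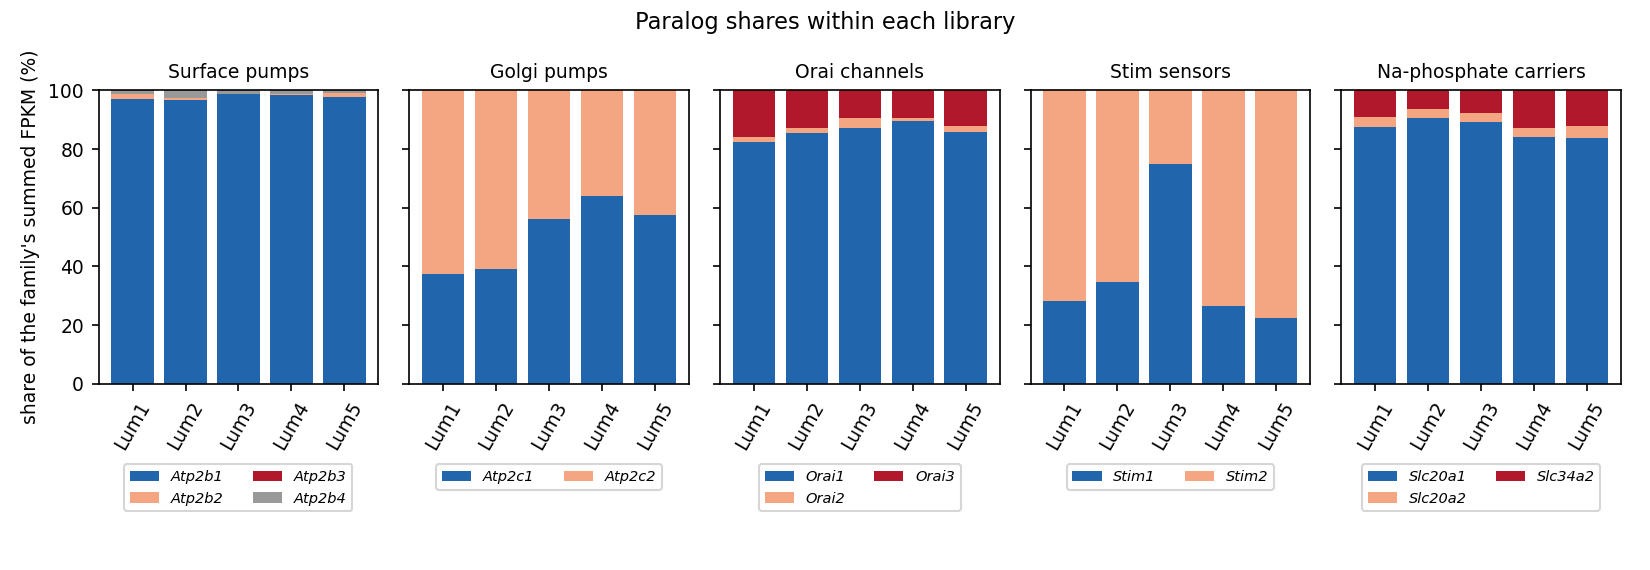
Share of each paralog in the summed FPKM of its family (percent, vertical axis) in each library (horizontal axis), with 1 panel for each of 5 families. *Atp2b1* and *Orai1* fill most of their families in every library, *Atp2c2* lies between 36.1% (Lum4) and 62.5% (Lum1), and the *Stim1* bar reaches 74.8% in Lum3 alone.

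The sensing receptor and the hormone were at the edge of detection. *Casr* (chr16:36493696-36562141, minus strand) was listed at 0 in Lum1, Lum2, Lum4 and Lum5 and at 0.00710 FPKM in Lum3, which corresponds to an estimated 0.977 fragments. At the estimated depths, 3 fragments of *Casr* would correspond to 0.0218 FPKM in Lum3 and up to 0.107 FPKM in Lum1, and the value listed in Lum3 lies under this floor. *Pthlh* (chr6:147252101-147264183, minus strand) was at 0.114, 0.218 and 0.0700 FPKM in Lum1 to Lum3 and at 0.113 and 0.1001 FPKM in Lum4 and Lum5, an estimated 1.13 to 4.52 fragments per library. These limits cover counting error only.

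Between the labels, no member passed the test over all genes. Of the 10 members, 7 averaged 1 FPKM or more and entered the limma fit over 11481 genes. At a Benjamini-Hochberg adjusted p under 0.05, 0 members were called higher or lower, where 0% of all genes tested were called in either direction. At an unadjusted p under 0.05 the fit gave 1 member, *Slc34a2*, and 372 genes in all (3.24%). Its 95% interval for *Slc34a2* ran from 0.096 to 1.79 in log2. For *Stim1* the difference of *Brca1* knockout minus wild type was -0.93 (95% interval -2.50 to 0.65), and it was -0.31 without Lum3 and -0.44 with array weights. *Atp2c2* differed by -0.56 (-1.32 to 0.20), which became -0.25 without Lum4 and -0.87 without Lum5. For *Atp2b1* the value was -0.28 (-1.01 to 0.45), or -0.071 without Lum3 and -0.51 without Lum1. *Atp2c1* differed by 0.38 (-0.17 to 0.93), or by 0.25 without Lum5 and with median-of-ratios scaling. *Stim2* differed by 0.23 (-0.34 to 0.80), or by 0.071 without Lum3, 0.11 with median-of-ratios scaling, 0.12 with quantile normalization and 0.13 with array weights. The adjusted p of these 5 genes was 0.92 each. *Orai1* differed by 0.076 (-0.36 to 0.51), and its sign turned under another scaling (-0.056 with median-of-ratios) and without Lum4 (-0.049). For each of the 10 members the two-sided exact permutation p lay between 0.2 and 1.0.

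**Figure D3:**
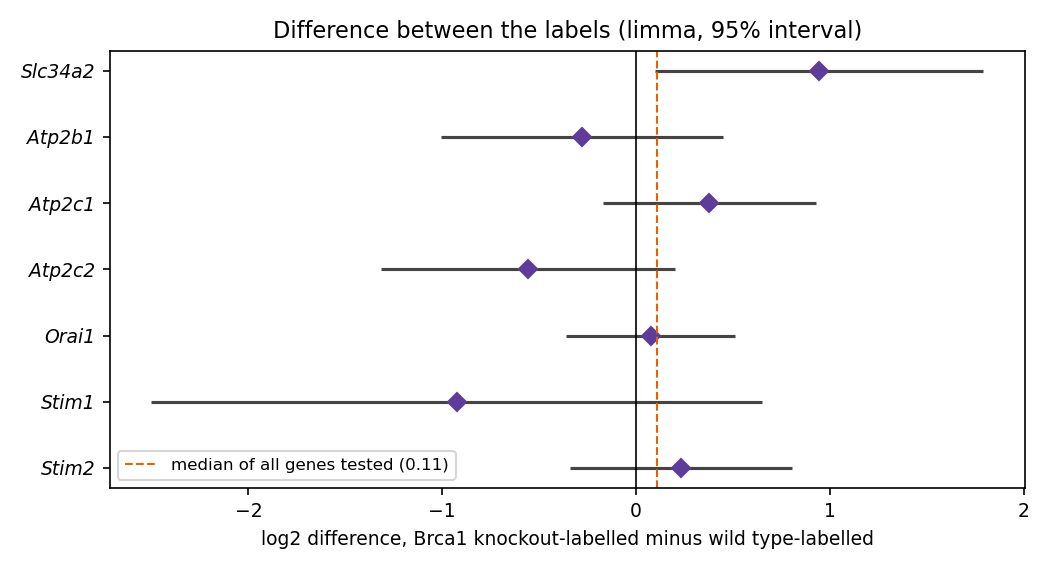
Difference in log2(FPKM + 1) between libraries labelled *Brca1* knockout (n = 2) and wild type (n = 3) for the 7 tested genes (diamonds) with 95% limma intervals (lines). The interval of *Slc34a2* alone stays above 0, from 0.096 to 1.79, and the dashed line marks the median of all genes tested at 0.11.

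Apart from the test, the labels did not overlap for *Slc34a2*, higher in both knockout-labelled libraries, as for 17.5% of all genes tested, and for *Stim1*, lower in both, as for 5.77% of all. Non-overlap in either direction was seen in 2 of 7 tested members and in 23.3% of all genes. With median-of-ratios scaling *Atp2c2* joined *Stim1* among the lower genes, and the shares of all genes became 11.7% higher and 10.3% lower, so that genes on the higher side made up 53.3% of those not overlapping against 75.2% as deposited. The median difference of all genes tested was 0.11 as deposited and -0.0088 after that scaling. Relative to this median, *Slc34a2* was at 0.84 (0.83 after scaling), *Atp2c2* at -0.67 (-0.68), *Stim1* at -1.03 (-1.03) and *Orai1* at -0.033 (-0.047).

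The genes whose profile over the 5 libraries was most like a member were looked up for the 3 members that ranged over at least 1 in log2. The measure was the Euclidean distance between centred log2(FPKM + 1) profiles, over genes averaging 10 FPKM or more (5414 genes for *Slc34a2* and *Atp2c2*, 5415 for *Stim1*). *Slc34a2* was nearest to *Arc* (distance 0.208), *Marcks* (0.263) and *Nfix* (0.299). *Arc*, an immediate early gene, was at 35.2, 17.5 and 16.5 FPKM in Lum1 to Lum3 and at 43.6 and 45.5 FPKM in Lum4 and Lum5. *Atp2c2* was nearest to *Prnp*, the prion protein gene (0.283), *Tcirg1*, a subunit of the vacuolar proton pump (0.290), and *Cpne8* (0.330). *Stim1* was nearest to *F3*, the tissue factor gene (0.226), *Fuca1*, a lysosomal fucosidase (0.271), and *Ube2q2* (0.297). *F3* was at 206 FPKM in Lum3 and at 44.8 to 52.4 FPKM in the other libraries. With 5 libraries and this many genes searched, some close profiles can arise by chance. How small the nearest distance is for other genes was not computed, and shared regulation was not tested.

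Other genes of calcium and phosphate handling gave 75 rows in 7 lists, of which 43 averaged 1 FPKM or more. At an adjusted p under 0.05, 0 of the 43 were called (limma; 4 at an unadjusted p under 0.05), and the permutation test could not go below 0.2. Their median difference was -0.029, with 19 above 0 and 24 below, beside 0.11 over all genes tested. In Lum3, 18 of the 43 had their highest value and 16 their lowest, where 18.5% and 51.9% of all genes tested did.

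Among calcium-binding proteins of the cytosol, endoplasmic reticulum and Golgi, 9 of 14 rows were tested, 2 with a difference above 0 and 7 below (median -0.19). *Hspa5*, the chaperone BiP, was at 695, 628 and 663 FPKM in Lum1 to Lum3 and at 406 and 333 FPKM in Lum4 and Lum5, and did not pass (difference -0.85, standard error 0.20, adjusted p = 0.92, limma). *Calr*, the store protein calreticulin, named after its values were seen, was at 379, 395 and 388 FPKM and at 257 and 269 FPKM (-0.56). Both genes are among 4 of the 9 tested (with *Canx* and *Calu*) whose labels did not overlap with the knockout label lower, as for 5.77% of all genes tested and 8 of the 43 other pathway genes. The calbindins of calcium-absorbing epithelia were scarce, with *Calb1* listed at 0 in all libraries and *S100g* above 0 in Lum3 alone (0.213 FPKM).

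Calcium hormones and their receptors had 4 of 12 rows tested, 1 with a difference above 0 and 3 below (median -0.94). *Calca*, which gives calcitonin and its related peptide CGRP, was at 95.4, 50.8 and 47.6 FPKM in Lum1 to Lum3 and at 14.6 and 25.5 FPKM in Lum4 and Lum5. Its difference of -1.62 (standard error 0.40) did not pass (adjusted p = 0.92, limma). *Calca* and *Tnfsf11* were the 2 of the 4 tested whose labels did not overlap, both with the knockout label lower, as for 5.77% of all genes tested. *Tnfsf11*, the RANKL gene, also named after its values were seen, was at 6.71, 3.78 and 7.22 FPKM and at 1.39 and 1.98 FPKM. *Vdr*, the vitamin D receptor, had the highest mean of the list and was at 78.9 to 118 FPKM. The receptors that would read *Pthlh* and calcitonin, *Pth1r* and *Calcr*, were at 0.0303 FPKM or lower.

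Of the other calcium ATPases, 2 of 7 were tested, both with a difference below 0 (median -0.73). *Atp2a2*, the pump SERCA2 that refills the endoplasmic reticulum, was at 68.8, 56.7 and 118 FPKM in Lum1 to Lum3 and at 61.8 and 61.6 FPKM in Lum4 and Lum5, above every member in each library. Other calcium entry genes had 9 of 16 rows tested, 3 above 0 and 6 below (median -0.13), and *Cracr2b*, a regulator of the ORAI channel, was at 44.7 to 91.5 FPKM. The epithelial channels *Trpv5* and *Trpv6*, which carry calcium uptake in kidney and gut, were at 0 and at 0.0545 FPKM or lower. Exchange, Golgi and mitochondrial transport genes had 7 of 12 rows tested, 4 above 0 and 3 below (median 0.14), with *Smdt1*, a subunit of the mitochondrial calcium channel, at 62.7 to 90.7 FPKM. *Tmem165*, a Golgi transporter of manganese and calcium named after its values were seen, was at 38.4, 41.4 and 14.4 FPKM in Lum1 to Lum3 and at 18.6 and 28.9 FPKM in Lum4 and Lum5.

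Other phosphate transport genes had 7 of 9 rows tested, 4 with a difference above 0 and 3 below (median 0.030), and *Slc20a1* had the highest mean of them. The caseins, the milk proteins whose micelles hold calcium phosphate, were all tested, with 5 of 5 above 0 (median 0.33) and 5 of 5 lowest in Lum3. *Csn2*, for beta-casein, was at 28982, 31978 and 10569 FPKM in Lum1 to Lum3 and at 25327 and 28653 FPKM in Lum4 and Lum5. Among other genes, Lum3 thus held the lowest levels of *Csn2*, *Slc34a2*, *Slc20a1* and *Stim2* and the highest of *Stim1*, *Atp2b1* and *Atp2a2*. It held the lowest value for 51.9% of all genes tested and the highest for 18.5%.

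**Figure D4:**
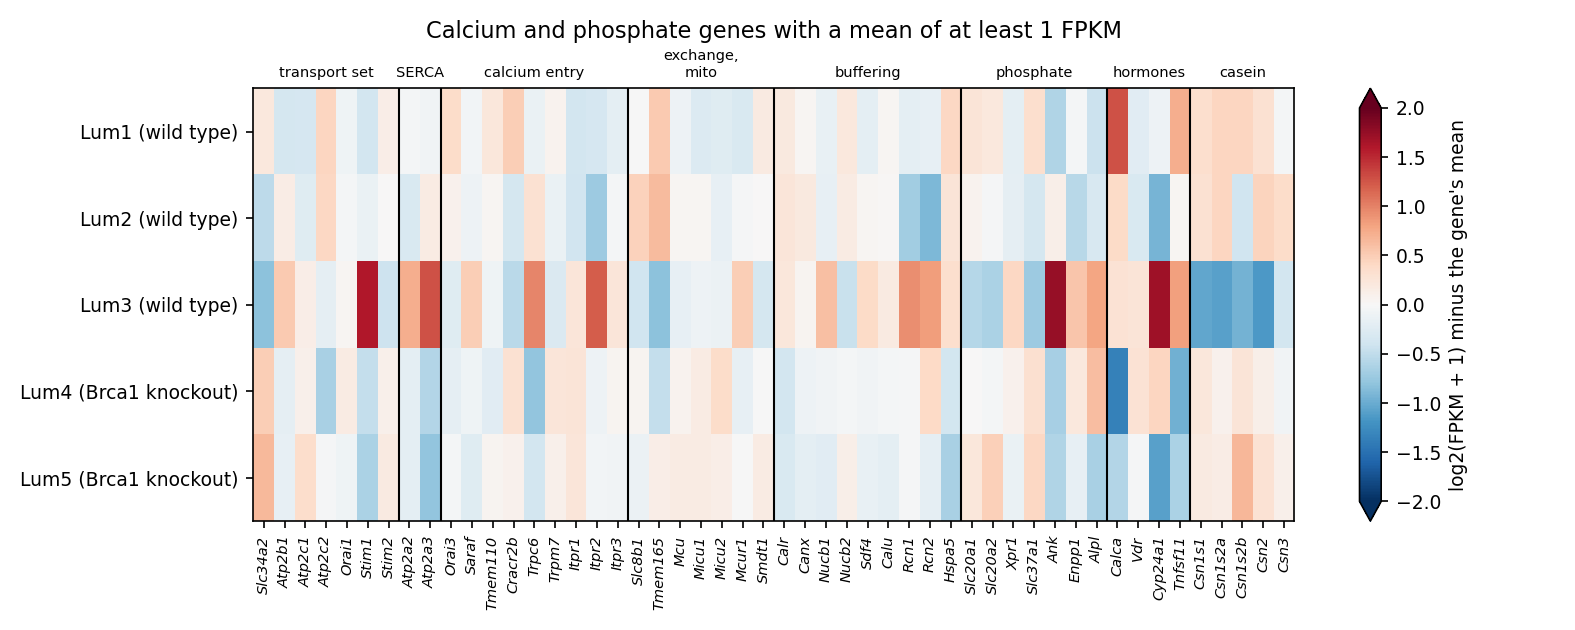
Level of the 7 tested members (first block) and 43 other calcium and phosphate genes, as log2(FPKM + 1) minus the mean of the gene over 5 libraries (color, limited to 2 either side), with libraries in rows and genes in columns grouped by list. The Lum3 row holds the strongest colors of *Stim1* and *Csn2*, in opposite directions, and *Calca* is lowest in Lum4 and Lum5.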

How the data were processed

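Bulk RNA-seq of 5 libraries of luminal cells was used, about which the study's methods say that live CD24Hi CD29Lo cells were sorted by flow cytometry; the extraction note in the labels instead describes tumors. The authors trimmed reads with Trimmomatic 0.35, aligned them to mm10 with TopHat2 2.0.13 (per the submitters' processing notes; the study's methods give another version) and deposited FPKM values from Cufflinks 2.2.1. The annotation and strand setting are not given in the sources used here. Of 24346 rows, 27 with a date in place of a gene name were left out, and no pair of columns was identical.

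Values were taken as log2(FPKM + 1), on which fold changes of weakly expressed genes come out too small. Labels were compared with limma 3.58.1 (lmFit, then eBayes with a trend; R 4.3.3), using the 11481 genes that averaged 1 FPKM or more and a Benjamini-Hochberg threshold of 0.05, and single genes by two-sided exact permutation (scipy 1.17.1). No source says that libraries came from separate animals, so p-values measure only the spread between these libraries. To estimate depth, the steps between low values were scaled by transcript length in 873 genes with a single annotated transcript, longer than 3000 bases. Only 51.8% to 57.9% of values lay within 0.15 fragments of a whole multiple, so counts were not recovered and no count test was run. For a step fixed beforehand, 30% would do so by chance. The step here was fitted to the same values, so its chance share can be higher and was not estimated. Fragments of each member were estimated from its longest annotated transcript. Tested on simulated data at an SD of 0.2, the limma fit recovered 188 of 200 genes changed by 1 (log2) among 11399 genes. It recovered 194 of 200 changed by 2 among 11403. At an SD of 0.5 it recovered 0 of 200 changed by 1 among 11338 and 164 of 200 changed by 2 among 11345. False calls were 9, 9, 0 and 6, in the same order. Each run had a single SD, while standard errors in the real fit ran from 0.17 (*Orai1*) to 0.63 (*Stim1*) among tested members. Recovery where the spread differs between genes was not tested. The members, lists and tests were chosen with earlier results of these data known, although the rule for the members used no measured value. Named are all members; other listed genes averaging at least 10 FPKM whose highest library is at least 4 times the lowest; the highest gene of each list; any gene past the threshold; and the 3 most like genes of members ranging over at least 1 in log2. Paralogs of members and the other pathway genes named outside this rule were chosen after their values had been seen. Coordinates are those of GENCODE M21 (GRCm38, mm10), and promoters those of RefSeq. Alternatives were another pseudocount, scaling, filter or limma setting, and each library left out. The alternatives to the non-overlap counts were added after the data had been seen.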

Additional observations from a re-analysis of the deposited data

Results flagged for a closer look

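In each group of 5 libraries, the gap of the highest or lowest library to the next was compared with the whole range by Dixon's test at its 95% critical value (0.71). Of 48 results examined, 10 were past it, and in all 10 the library apart was Lum3. Chance would pass about 1 in 20, or 2.4 here, if the results were independent and chosen beforehand. These results share the libraries, some repeat others, and some genes were named after their values were seen. The count of 10 therefore cannot be set against that number.

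Lum3 was high for *Stim1* at 3.95 in log2(FPKM + 1) and for its share of both Stim sensors at 74.8%. The genes chosen for being most like *Stim1* followed by construction, *F3* at 7.69, *Fuca1* at 5.63 and *Ube2q2* at 5.47. *Atp2a2* was high in Lum3 at 6.89, and so was the summed level of the luminal markers at 13.30. Of these 5 markers 4 were highest in Lum3, while *Cd24a* was lowest there, at 411 FPKM. Lum3 was low for *Csn2* at 13.37 and for *Brca1* at 0.30. *Casr* was above 0 in Lum3 alone, at 0.010 in log2(FPKM + 1), which is about 1 fragment. With every other library at 0, any value above 0 would have been past the critical value. No cause was tested for any of these.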

How the results depend on the processing

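The count of genes that differed between the labels was 0 and became 1 with array weights, which gave 2799 genes at an unadjusted p under 0.05. It ranged from 0 to 18 when 1 library was left out, with 18 without Lum4, 4 without Lum5 and 2 without Lum1, where a lone knockout-labelled library is assumed to vary like the others, and the cause was not tested. Among members and other pathway genes it was 0 in all 12 alternatives. Label differences of the 7 tested members kept their direction and stayed short of the threshold in 82 of 84 comparisons, and *Orai1* turned from 0.076 to -0.056 with median-of-ratios scaling and to -0.049 without Lum4 (-0.049 to 0.20 with each library left out in turn). With a pseudocount of 0.1 the levels of *Atp2b2*, *Casr* and *Pthlh* became -2.08, -3.30 and -2.20 in log2. The *Slc34a2* share of phosphate carriers was 9.50% over 5 libraries and 12.4% in those labelled *Brca1* knockout. Genes whose labels did not overlap with the knockout label lower numbered 663, and 1182 after median-of-ratios scaling or 1792 without Lum3; without Lum3 the members among them were *Atp2c2* and *Stim1*, and *Atp2c1* joined *Slc34a2* on the higher side, where 15.6% of all genes tested were lower and 2702 (23.5%) higher. No paired analysis was possible because the wild type and *Brca1* knockout libraries share no number in their titles. *Atp2b2*, *Casr* and *Pthlh* averaged under 1 FPKM and did not enter the main limma fit. With 3 libraries against 2, no counts and values this close to 0, small differences between the labels in *Atp2b2*, *Casr* and *Pthlh* cannot be judged.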
